A study of Mus musculus with 62 samples.

Results

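The 10 genes followed here belong to de novo fatty acid synthesis, and they were measured by RNA-seq in white adipose tissue of mice that carried melanoma cells or a mock injection. They were chosen by name as the enzymes of the route from citrate to unsaturated fatty acid (Acly, Acaca, Acacb, Fasn, Elovl6, Scd1 and Me1), its small regulator Thrsp, and the transcription factors Srebf1 and Mlxipl. All 10 were found among the 47643 gene symbols of the deposited table, and all 10 passed the filter on low values, which required the average of the 62 libraries to reach 0.5 TPM. TPM is a length-corrected abundance that sums to 1000000 in each library.

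The animals were female mice, 2 months old. They received melanoma cells described as cachectic (CAC), melanoma cells described as non-cachectic (NCAC) or a mock injection (Con), and tissue was taken 2, 4, 6 or 8 weeks later. Each of the 12 groups held 5 libraries, except CAC at 8 weeks with 7. Arm, week and replicate number were read from the descriptions, since the treatment tags name cachectic melanoma cells for all samples alike. The strain tag reads C57BL6/J whereas the series text names NCI Ath/nude mice, and this was not resolved. The fat depot is not named in the labels, and the labels call the replicates biological.

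De novo fatty acid synthesis turns carbohydrate carbon into fat. Citrate leaves the mitochondrion and ATP citrate lyase (Acly) splits it into acetyl-CoA. Acetyl-CoA carboxylase makes malonyl-CoA from it, and fatty acid synthase (Fasn) builds palmitate from malonyl-CoA with NADPH, part of which malic enzyme (Me1) supplies. Elovl6 lengthens palmitate to stearate, and stearoyl-CoA desaturase (Scd1) introduces a double bond. The cytosolic carboxylase Acaca feeds synthesis, while Acacb sits at the mitochondrial outer membrane, where its malonyl-CoA restrains fatty acid entry through carnitine palmitoyltransferase. SREBP-1 (Srebf1) and ChREBP (Mlxipl) are the transcription factors through which insulin and glucose raise these genes, and in mouse adipose tissue ChREBP is known for linking glucose uptake to lipogenesis.

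The promoter windows of Fasn and Acly, enzymes whose levels followed each other closely, and both windows of Mlxipl, the regulator that was called in a comparison between arms, are shown as the 250 bases before the start site on the strand of the gene. They are from RefSeq (GRCm38.p6), in which 9 of the 10 genes had an entry with 13 windows in all. Capitals mark matches on either strand to 4 motifs. The first is the E-box CACGTG, an element bound by ChREBP and by SREBP-1. The second is the sterol response element TCACNCCAC, the third the CCAAT box CCAAT bound by NF-Y, and the last the GC box GGGCGG bound by Sp1.
Fasn, chr11:120824548-120824797, minus strand: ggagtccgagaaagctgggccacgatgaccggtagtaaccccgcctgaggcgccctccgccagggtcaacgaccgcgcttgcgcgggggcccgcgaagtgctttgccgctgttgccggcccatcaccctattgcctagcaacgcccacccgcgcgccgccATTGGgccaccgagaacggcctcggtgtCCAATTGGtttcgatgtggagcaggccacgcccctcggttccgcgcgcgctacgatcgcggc
Acly, chr11:100528001-100528250, minus strand: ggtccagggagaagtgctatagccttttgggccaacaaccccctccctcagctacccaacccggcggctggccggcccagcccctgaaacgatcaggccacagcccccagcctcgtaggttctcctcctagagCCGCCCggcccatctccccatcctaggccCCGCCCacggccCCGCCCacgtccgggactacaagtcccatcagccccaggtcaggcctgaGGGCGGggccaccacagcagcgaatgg
Mlxipl upstream start, chr5:135089640-135089889, plus strand: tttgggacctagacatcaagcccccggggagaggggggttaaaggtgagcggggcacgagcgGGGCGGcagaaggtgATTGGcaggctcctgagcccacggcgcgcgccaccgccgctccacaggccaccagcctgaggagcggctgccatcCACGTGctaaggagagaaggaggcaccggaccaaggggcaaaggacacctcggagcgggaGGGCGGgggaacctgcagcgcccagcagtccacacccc
Mlxipl downstream start, chr5:135106641-135106890, plus strand: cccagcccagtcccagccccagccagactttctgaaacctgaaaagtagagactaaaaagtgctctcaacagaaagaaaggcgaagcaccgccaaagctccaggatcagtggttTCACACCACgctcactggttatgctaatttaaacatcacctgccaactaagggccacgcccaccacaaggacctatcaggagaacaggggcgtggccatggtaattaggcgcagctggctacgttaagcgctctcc

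The Fasn window held 3 CCAAT boxes, at -90, -62 and -59 from the start site, of which the last pair overlap. The Acly window held 4 GC boxes, at -117, -88, -76 and -27. Among the 13 windows of the genes, 7 held a CCAAT box and 5 a GC box, motifs found in 33.9% and 32.7% of all 32841 RefSeq mouse windows of the same length. The E-box occurred in 1 window, that of the upstream Mlxipl start (at -98), against 6.02% of all windows. The sterol response element occurred in 1 window, that of the downstream Mlxipl start (at -136), against 1.05% of all windows. The Mlxipl starts lie 17001 bases apart on chromosome 5, and the gene-level TPM cannot separate transcripts from one and the other. A match is a run of letters and not a measured binding site.

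Libraries stood apart in tissue content in ways that touch the results. The 37 mitochondrially encoded genes took 17.2% to 44.4% of a library. Urothelium markers (Upk1a, Upk1b, Upk2, Upk3a, Psca and Krt20) summed to over 100 TPM in 19 libraries, of which 13 were CAC, 4 Con and 2 NCAC, and these are called urothelium-rich. Col1a1, the main fibrillar collagen gene, exceeded 400 TPM in 8 libraries (2 CAC, 4 Con and 2 NCAC), which are called matrix-rich below. The defining adipocyte markers (Adipoq, Plin1, Cidec, Lep, Fabp4 and Pparg) summed to between 16099 and 50924 TPM in every library, so the markers of the labelled tissue were present throughout. Mammary epithelium markers (Krt8, Krt18, Epcam, Csn2, Csn3, Wap, Lalba and Krt14) summed to between 2.10 and 1093 TPM. The highest sum was in CAC at 2 weeks, where the median was 69.6 TPM. Of these 8 the milk genes Csn2, Csn3 or Wap were listed at 0 throughout many groups. In Con at 8 weeks all 3 were at 0, yet the list reached 194 TPM. No counting interval can be given, because the table holds no read depth.

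Together, the 10 genes took 0.484% to 4.37% of the TPM of a library, with a median of 2.47%. Scd1 had the highest mean over the 62 libraries, 11989 TPM, followed by Thrsp with 4307, Fasn with 3499, Me1 with 1574 and Acly with 1117. Acaca (472), Elovl6 (424), Acacb (207.5), Srebf1 (204) and Mlxipl (87.8) were lower, with the transcription factors at the bottom of the order. The largest spread between single libraries was that of Elovl6, from 36.9 to 1362 TPM or 36.9 times, and the smallest that of Srebf1, from 54.3 to 391 TPM or 7.20 times. Most of this variation lay between libraries of the same group. Its share of the total variation on the log2 scale ran from 53.8% for Mlxipl and 67.5% for Acacb to 94.3% for Elovl6.

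**Figure D1:**
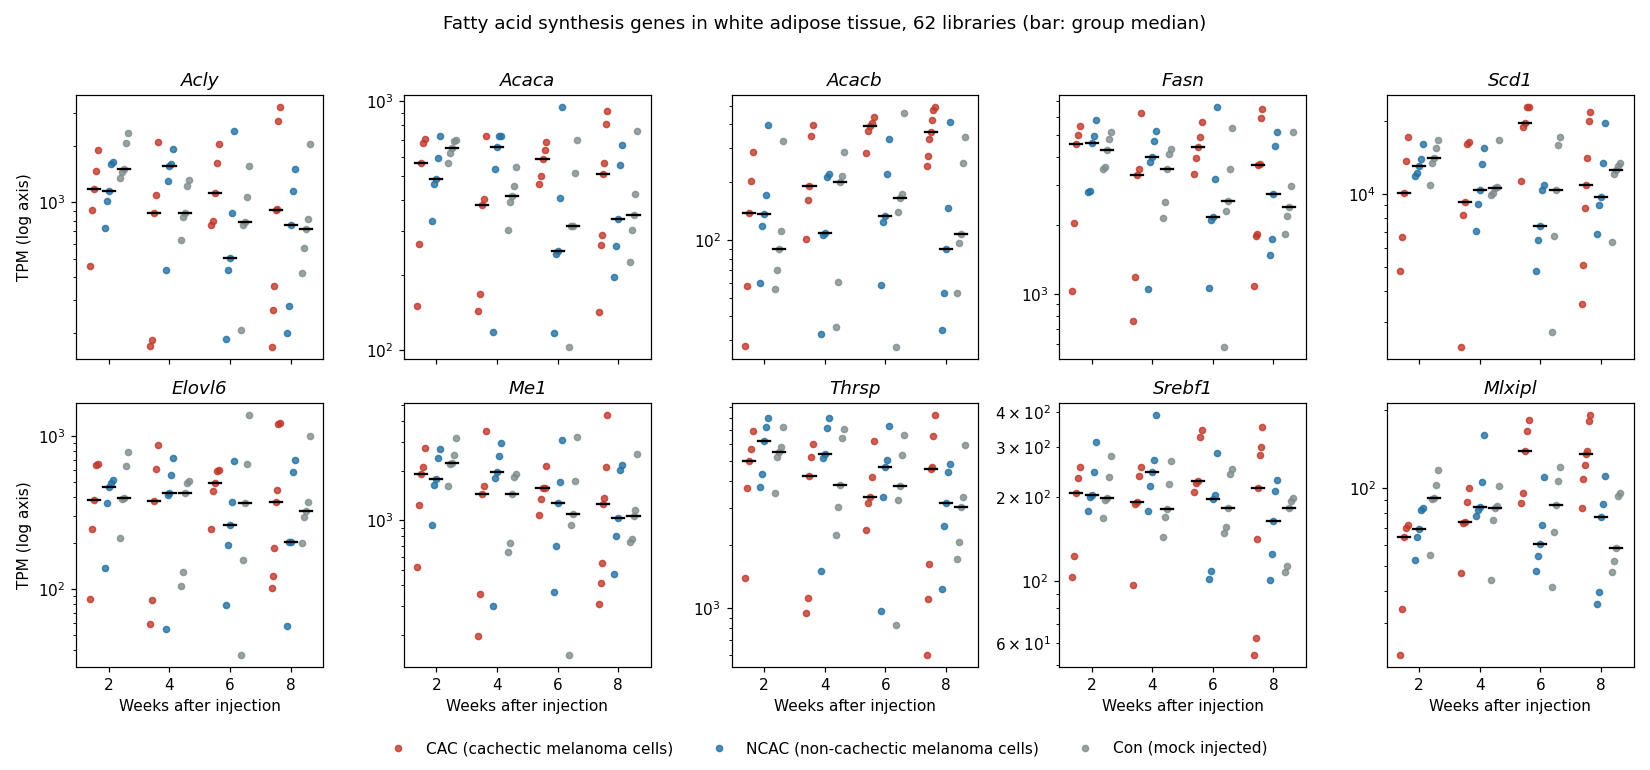
TPM (log axis) of each of the 10 genes in 62 libraries by weeks after injection, coloured by arm, each point 1 library and each bar the group median. Arms overlap in most panels, including Mlxipl and Acacb at 8 weeks, where CAC libraries sit between 83.2 and 190.4 TPM and between 244.5 and 493 TPM. For Scd1 at 6 weeks all 5 CAC libraries lie above all NCAC libraries.

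Some libraries had the lowest level for several of the genes. The library Con 6 weeks replicate 5 had the lowest level of all 62 for Acaca (103 TPM), Acacb (27.7), Fasn (585), Elovl6 (36.9) and Me1 (150.1), and its Col1a1 was 944 TPM. CAC 8 weeks replicate 1 was lowest for Acly (168) and Thrsp (595), and replicate 6 of that group was lowest for Srebf1 (54.3). Scd1 was lowest in CAC 4 weeks replicate 2 (2360) and Mlxipl in CAC 2 weeks replicate 5 (22.5). In bulk tissue, fewer adipocytes and less RNA per adipocyte cannot be told apart.

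Mlxipl, the gene of ChREBP, was higher in CAC than in Con tissue at 8 weeks. CAC libraries ranged from 83.2 to 190.4 TPM with a median of 135, and the Con libraries held 51.9, 47.4, 95.5, 58.5 and 92.9 TPM. Of the 7 CAC libraries, 6 lay above every Con library. The mean was 137 ± 38.0 TPM (SD, n = 7) against 69.2 ± 23.1 (n = 5), a log2 difference of 0.99 (SE 0.24, limma adjusted p = 0.0420). It was the only one of the 10 genes called in this comparison, in which 3.07% of the 14577 genes tested were called, 1.08% as higher. Calls over all genes numbered 158 higher and 290 lower, and 250 and 1811 without the mitochondrially encoded genes. The call sits close to its threshold: it held in 4 of 12 other settings and in 4 of 12 fits without 1 library, with a log2 difference between 0.76 and 1.12 in all of them and an adjusted p of 0.0978 without Con replicate 2. Urothelium markers summed to a median of 105 TPM in CAC and 21.9 in Con at 8 weeks; without the urothelium-rich libraries the difference was 0.81 with an adjusted p of 0.750 (6 libraries), and their part in the result was not tested further.

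Against NCAC at 8 weeks Mlxipl had the same direction without a call. NCAC libraries held 35.5, 39.6, 111, 76.8 and 86.4 TPM, and 5 of 7 CAC libraries lay above all of them. The log2 difference was 1.04 (SE 0.29, adjusted p = 0.104). At 6 weeks CAC libraries held 165, 87.0, 183, 139 and 95.3 TPM, NCAC libraries 60.7, 54.5, 47.8, 72.0 and 110.03, and Con libraries 67.5, 86.0, 120.2, 106 and 41.5. Of the 5 CAC libraries, 3 exceeded every NCAC and every Con library. The log2 difference was 0.95 from NCAC (SE 0.26, adjusted p = 0.0575) and 0.69 from Con (SE 0.30, adjusted p = 0.49988).

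At 2 weeks the Mlxipl difference had the opposite sign. CAC libraries held 33.9, 70.0, 71.8, 64.4 and 22.5 TPM and Con libraries 117, 103, 54.8, 90.6 and 91.7, a log2 difference of -0.88 (SE 0.34, adjusted p = 0.999). The change of the CAC effect between 2 and 8 weeks, tested itself, was 1.86 (SE 0.42, unadjusted p = 0.000218, adjusted p = 0.133) and was not called. In that contrast 0.0549% of all genes were called. Both low CAC libraries of week 2, replicates 1 and 5, were matrix-rich (Col1a1 588 and 607 TPM). So was Con replicate 1 of week 2 (Col1a1 971 TPM), which had the highest Mlxipl of both groups, 117 TPM. Without the matrix-rich libraries, left out after seeing the data, 2 of the 10 genes had a positive change of the CAC effect (median -0.24). With them all 10 did (median 0.53). The part of matrix content was not tested further.

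Srebf1, the gene of SREBP-1, was spread most widely in CAC at 8 weeks. These libraries ranged from 54.3 to 354.5 TPM with a median of 215, and the Con libraries held 113, 108, 183, 198 and 194. Of the 7 CAC libraries, 4 lay above every Con library and 2 lay below every one. Between these groups Srebf1 differed by 0.09 on the log2 scale (SE 0.46, adjusted p = 0.947). The low pair, replicates 1 and 6 (62.6 and 54.3 TPM of Srebf1), had 122 and 181 TPM of Mlxipl, so in these libraries low Srebf1 stood beside Mlxipl levels above every Con library. At 6 weeks Srebf1 in CAC (208 to 345 TPM) had a log2 difference of 0.44 from Con (SE 0.21, adjusted p = 0.543) and of 0.64 from NCAC (SE 0.28, adjusted p = 0.179).

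Acacb, the mitochondrial carboxylase, was called in CAC against NCAC when the 4 weeks were averaged. The log2 difference was 0.91 (SE 0.28, adjusted p = 0.0331), in a comparison in which 11.1% of genes were called, 5.93% as higher. The average does not stand for each week: CAC differed from NCAC by -0.46 at 2 weeks (SE 0.65) and 0.92 at 4 weeks (SE 0.53), and from Con by 0.0066 at 2 weeks (SE 0.65) and 0.80 at 4 weeks (SE 0.60). At 8 weeks CAC libraries ranged from 244.5 to 493 TPM with a median of 366. The NCAC libraries held 90.0, 34.0, 413, 53.3 and 148 TPM and the Con libraries 53.0, 96.7, 346, 107 and 251. The CAC range was reached by 1 NCAC library and 2 Con libraries, and 3 CAC libraries lay above all NCAC and 4 above all Con libraries. The single-week differences were 1.84 from NCAC (SE 0.48, adjusted p = 0.0903) and 1.40 from Con (SE 0.39, adjusted p = 0.0725), neither called. The averaged call held in 7 of 12 other settings and in 34 of 42 fits without 1 library, with the highest adjusted p, 0.0621, without NCAC 8 weeks replicate 2.

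At 6 weeks the Acacb levels in CAC had the lowest coefficient of variation of the 12 groups, 15.4%, at 439, 284, 368, 391 and 405 TPM. NCAC libraries held 221, 124, 58.3, 134 and 337 and Con libraries 166, 459, 173, 140.0 and 27.7. Of the 5 CAC libraries, 4 exceeded every NCAC library (log2 difference 1.32, SE 0.38, adjusted p = 0.0698), whereas none exceeded the highest Con library (1.42, SE 0.56, adjusted p = 0.439). Averaged over the weeks, the difference from Con was 0.90 (SE 0.30, adjusted p = 0.0511), with 9.17% of all genes called there.

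The Acacb level moved with markers of thermogenic fat, that is brown or beige adipocytes (Ucp1, Cidea, Elovl3, Dio2, Ppargc1a, Cox7a1 and Cox8b). These 7 genes summed to a median of 1301 TPM in CAC at 8 weeks (809 to 3235), 195 in NCAC (124 to 1349) and 520 in Con (141 to 3947). In CAC against NCAC at 8 weeks 2 of the 7 were called, both higher: Cidea with a log2 difference of 3.28 and Cox7a1 with 2.35. Of all genes 0.528% were called there, 0.343% as higher. With the mean of the 7 as a covariate, chosen after seeing the data, the averaged Acacb difference was 0.22 (SE 0.24, adjusted p = 0.546). These markers differed between the arms themselves, so their part and that of the arm cannot be told apart by this fit. Fibroblast and matrix markers (Col1a1, Col1a2, Col3a1, Dpt, Lum and Pdgfra) summed to a median of 365 TPM in CAC, 1699 in NCAC and 1336 in Con at 8 weeks. Of the 6, 5 were called lower in CAC against Con, where 3.07% of all genes were called, 1.99% as lower. Without the urothelium-rich libraries, most of which were CAC, Acacb was not called (adjusted p = 0.605). The averaged difference was then 0.82 (SE 0.44), against 0.91 (SE 0.28) with them. The part of these cell types in the Acacb difference was not tested further.

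Acaca, the cytosolic carboxylase, was not called at 8 weeks. CAC libraries ranged from 142 to 912 TPM with a median of 509.7, the NCAC libraries from 196 to 666 and the Con libraries from 227 to 762. Acaca differed from Con by 0.15 on the log2 scale (SE 0.44, adjusted p = 0.902). The ratio of Acacb to Acaca within a library, chosen after the levels were seen, had a median of 0.743 in CAC at 8 weeks, 0.222 in NCAC and 0.277 in Con. Its log2 difference was 1.65 from NCAC (two-sided exact permutation p = 0.0202, 4 of 7 above all) and 1.25 from Con (exact permutation p = 0.0404, 3 of 7 above all). Over the 36 ratio tests, with 3 ratios in 12 comparisons, both had an adjusted p of 0.273.

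The ratio of Mlxipl to Srebf1 at 8 weeks had a median of 0.590 in CAC (0.381 to 3.33), 0.411 in NCAC (0.283 to 0.483) and 0.459 in Con (0.295 to 0.522). Its log2 difference from NCAC was 1.02 (exact permutation p = 0.0455, 5 of 7 above all, adjusted p = 0.273), and from Con it was 0.91 (exact permutation p = 0.0833, 4 of 7 above all, adjusted p = 0.375). At 2 weeks the ratio was lower in all 5 CAC libraries than in any Con library, with a log2 difference of -0.60 and an exact permutation p of 0.00794, the smallest that 5 against 5 can give (adjusted p = 0.273). NCAC at 2 weeks differed from Con in the same direction, by -0.43 (exact permutation p = 0.0556, 4 of 5 below all Con), and CAC from NCAC by -0.18 (exact permutation p = 0.325). The ratio of Scd1 to Fasn differed by between -0.33 and 0.47 on the log2 scale over its 12 comparisons, with no exact p under 0.05. No ratio test passed after adjustment. With 5 against 5, a single test at the smallest possible p cannot pass by itself an adjustment over 36 tests, however complete the separation.

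Acly and Me1, which supply acetyl-CoA and NADPH, varied more within CAC at 8 weeks than they differed between arms. Acly ranged there from 168 to 3249 TPM with a median of 909.9, against 201 to 1519 in NCAC and 421 to 2051 in Con. Me1 ranged from 308.5 to 4341 TPM with a median of 1249.8, against 471 to 2168 in NCAC and 739 to 2520 in Con. The CAC range enclosed both control ranges for each gene. The log2 differences from Con were -0.08 (SE 0.71, adjusted p = 0.974) for Acly and -0.15 (SE 0.59, adjusted p = 0.932) for Me1.

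Fasn and Thrsp overlapped between arms as well. Fasn in CAC at 8 weeks ranged from 1080 to 6492 TPM with a median of 3668, in NCAC it read 1736, 1489, 5140, 2735 and 4440, and in Con 1826, 2198, 5133, 2977 and 2410. The groups overlapped throughout, with a log2 difference of 0.11 from Con (SE 0.44, adjusted p = 0.932). At 6 weeks Fasn read 4428, 3341, 4881, 5696 and 3953 in CAC against 2545, 5324, 3538, 2315 and 585 in Con, a log2 difference of 0.93 (SE 0.48, adjusted p = 0.596). Thrsp, the lipogenic Spot 14 protein, ranged from 595 to 8242 TPM in CAC at 8 weeks and from 1702 to 5947 in Con, with a difference of -0.08 (SE 0.62, adjusted p = 0.967).

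Scd1, the desaturase, was higher in CAC than in NCAC at 6 weeks. CAC libraries held 11346, 18892, 22621, 22726 and 19514 TPM and NCAC libraries 4852, 7393, 10429, 6495 and 10926. All 5 CAC libraries lay above every NCAC library, a pattern that 6.88% of all genes tested had in this direction. The log2 difference was 1.27 (SE 0.26, adjusted p = 0.0219), the only call among the 10 genes here, with 5.78% of genes called and 4.94% called higher. Calls over all genes numbered 720 higher and 123 lower, and 530 and 465 after rescaling by median ratios. It held in 8 of 12 other settings and 7 of 10 fits without 1 library, with an adjusted p of 0.0621 without NCAC replicate 4. Urothelium markers moved with it, summing to a median of 193 TPM in CAC and 12.6 in NCAC at 6 weeks with 4 of 6 called higher; without the urothelium-rich libraries the Scd1 difference was 1.56 (adjusted p = 0.112, 7 libraries).

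At 8 weeks Scd1 was spread across both control ranges. The CAC libraries ranged from 3553 to 21774 TPM with a median of 10849, NCAC libraries from 6884 to 19615 and Con libraries from 6385 to 13337. Of the 7 CAC libraries, 2 lay below every NCAC library and 2 above. Scd1 differed from NCAC by -0.12 on the log2 scale (SE 0.44, adjusted p = 0.938). Against Con at 6 weeks, where the libraries held 17139, 15871, 10408, 6754 and 2712 TPM, 4 of 5 CAC libraries were above all Con libraries, with a log2 difference of 1.07 (SE 0.46, adjusted p = 0.485). The change of the difference between CAC and Con from 6 to 8 weeks was -1.21 (SE 0.66, adjusted p = 1.000) and was not called.

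Elovl6, the elongase, had the largest within-group SD of the 10 genes, 1.28 on the log2 scale. At 8 weeks it ranged from 102 to 1214 TPM in CAC, from 57.5 to 695 in NCAC and from 201 to 992 in Con, and the CAC difference from Con was -0.12 (SE 0.64, adjusted p = 0.950). At 6 weeks CAC libraries (245 to 599 TPM) lay inside the Con range (36.9 to 1362). No difference of Elovl6 between arms was called at any week.

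**Figure D2:**
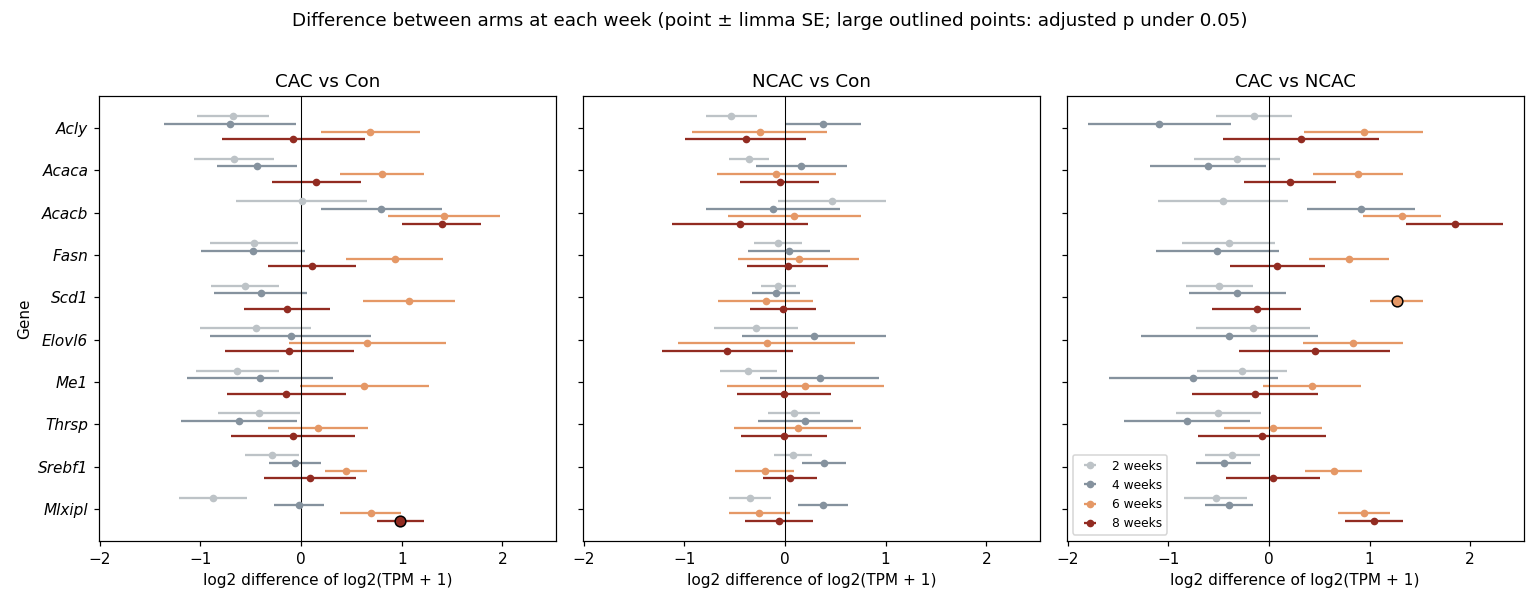
Log2 difference of log2(TPM + 1) between arms at each week for each gene, as point ± limma SE, with large outlined points for an adjusted p under 0.05. The outlined points are Mlxipl in CAC against Con at 8 weeks (0.99) and Scd1 in CAC against NCAC at 6 weeks (1.27), and NCAC against Con has none.

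The signs of the 10 differences between CAC and Con were not the same at each week, although the change from 2 or 6 to 8 weeks was called for none of the genes. At 2 weeks 9 of 10 differences were negative, with a median of -0.51 on the log2 scale (0.08 over all genes tested), and at 4 weeks 9 of 10 with a median of -0.40 (all genes -0.08). At 6 weeks all 10 were positive with a median of 0.69 (all genes -0.03), and at 8 weeks 5 were positive and 5 negative with a median of 0.0058 (all genes -0.08). Positive signs were held by 64.2%, 32.7%, 45.2% and 38.9% of all genes at 2, 4, 6 and 8 weeks. The 10 genes are not separate observations, since 6 of them varied together within groups (pairwise Pearson r of at least 0.902). None of the 10 was called by limma at 2, 4 or 6 weeks, where 0.00686%, 0.00686% and 0.357% of all genes were called. At an unadjusted p under 0.05 stood 1, 0, 3 and 2 of the 10 at 2, 4, 6 and 8 weeks, and 3.45%, 2.78%, 9.45% and 20.6% of all genes.

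The signs changed at every week under some setting. Leaving out matrix-rich or urothelium-rich libraries and fitting thermogenic markers were chosen after seeing the data. Without the matrix-rich libraries 4 of 10 differences at 2 weeks were negative with a median of 0.07, and 7 of 10 at 6 weeks were positive with a median of 0.37. With the thermogenic markers as a covariate 6 of 10 were positive at 6 weeks, with a median of 0.08. Without the urothelium-rich libraries 6 of 10 were positive at 4 weeks (median 0.09) and all 10 at 8 weeks (median 0.60). With library weights, an alternative listed from the start, 4 of 10 were positive at 2 weeks (median -0.06), 4 at 4 weeks (median -0.04) and 9 at 8 weeks (median 0.26). Dropping the mitochondrially encoded genes gave 0, 2, 10 and 4 positive signs at 2, 4, 6 and 8 weeks, and rescaling by median ratios gave 0, 3, 10 and 7.

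The comparison with NCAC shares its CAC libraries with the one above, and its 10 signs are not separate observations either. All 10 differences were negative at 2 weeks (median -0.38) and 9 of 10 at 4 weeks (median -0.48). All 10 were positive at 6 weeks, with a median of 0.86 against 0.13 over all genes, and 9 of 10 under either rescaling. At 8 weeks 7 of 10 were positive with a median of 0.14. These signs changed too: at 2 weeks 6 of 10 were positive without the matrix-rich libraries (median 0.16) and 4 of 10 with library weights. At 8 weeks 3 of 10 were positive with the thermogenic covariate (median -0.37), and all 10 without the urothelium-rich libraries (median 0.45). Of all genes, 64.9%, 36.8%, 67.2% and 45.2% had a positive sign at 2, 4, 6 and 8 weeks. None of the 10 genes was called by limma at 2, 4 or 8 weeks, with 0%, 0% and 0.528% of all genes called. At an unadjusted p under 0.05 stood 0, 0, 4 and 2 of them at 2, 4, 6 and 8 weeks, and 3.62%, 4.45%, 26.2% and 16.1% of all genes.

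Non-cachectic melanoma cells gave no call for any of the 10 genes, nor for any other gene, at any week against Con by limma (0% of genes called). With library weights, which give less influence to libraries far from their group, Scd1 was called lower at 6 weeks. In the unweighted fit none of the 10 reached an unadjusted p under 0.05, as did 1.61%, 0.789%, 1.41% and 1.24% of all genes at 2, 4, 6 and 8 weeks. Positive signs, again not separate observations, were held by 3, 8, 4 and 2 of the 10 at those weeks. Of all genes 47.2%, 47.3%, 18.3% and 37.1% held one. The medians of the 10 differences were -0.18, 0.25, -0.13 and -0.04. The positive signs at 6 and 8 weeks ranged from 0 to 6 and from 0 to 9 over the settings, with 5 and 6 under median-ratio rescaling. Libraries were simulated with the spread of NCAC and Con at 8 weeks over 14577 genes. Of the genes changed by 1 log2 unit 67 of 100 were recovered, and 88 of 100 of those changed by 2. The changed genes were drawn at random from the better expressed genes with independent noise, so these shares do not apply to the 10. The limma SE of the 10 in that comparison ran from 0.27 (Srebf1) to 0.68 (Acacb).

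In mock-injected tissue most of the 10 genes had a negative difference between 8 and 2 weeks, which no adjusted test passed. Negative signs were found for 9 of 10, with a median of -0.55 against 0.16 over all genes, and for 9 of 10 under either rescaling, while 77.3% of all genes had a positive sign. Of the 10, 5 had an unadjusted p under 0.05 (3.87% of all genes), namely Acly (log2 difference -1.13, SE 0.37), Me1 (-1.03, SE 0.33), Thrsp (-0.87, SE 0.34), Acaca (-0.76, SE 0.28) and Fasn (-0.63, SE 0.28). None was called, each with an adjusted p of 0.789, and 0% of all genes were called by limma. All 5 belong to the 6 genes that varied together within groups (pairwise Pearson r of at least 0.902). They are therefore not 5 separate observations, and their count cannot be weighed against the share of all genes as if they were. Marker lists differed as well, none with a called gene: all 6 adipocyte markers had negative signs (median -0.33). All markers were positive for thermogenic fat (7 of 7, median 1.17), fibroblast and matrix (6 of 6, 0.80), mesothelium (4 of 4, 0.86) and macrophage (5 of 5, 0.31), and their part in the result was not tested. The Con libraries held 694, 652, 566, 621 and 696 TPM of Acaca at 2 weeks and 227, 349.6, 762, 425 and 303 at 8 weeks.

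Within groups, 6 of the genes varied together closely. After each group mean was removed, the 15 pairs among Acly, Acaca, Fasn, Elovl6, Me1 and Thrsp had Pearson r between 0.902 and 0.971 over 62 libraries, and Spearman rho of at least 0.881. Acaca and Fasn were the closest pair (r = 0.971, rho = 0.966), and Acly and Fasn had r = 0.937 and rho = 0.943. The lowest of the 15 r was 0.889 without the 2 libraries farthest from the median, and 0.919 once mitochondrially encoded genes were dropped from the scaling. The highest adjusted permutation p of r among them was 4.43e-05 over 155 relations, where the smallest raw p that 100000 permutations can give is 1e-05. All pairs come from the same libraries and share their tissue content.

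**Figure D3:**
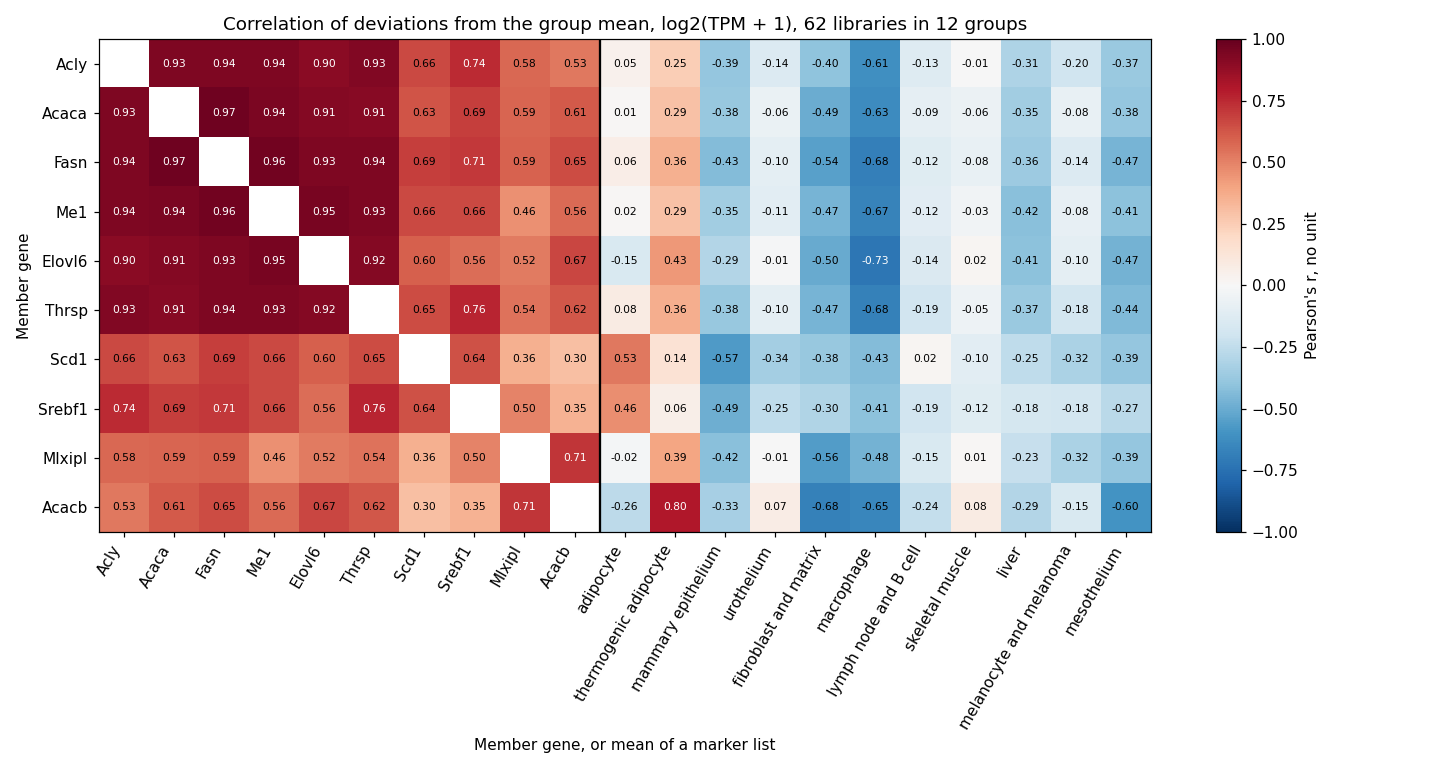
Pearson r (colour and number) of deviations from the group mean of log2(TPM + 1), 62 libraries in 12 groups, between the 10 genes and, right of the line, with the mean of 11 marker lists. The block of 6 genes at the upper left has r of 0.90 and above, while Scd1, Srebf1, Mlxipl and Acacb stand apart from it with lower r.

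The other 4 genes were tied to this block more loosely, and the median over all 45 pairs was 0.663. Scd1 had r = 0.693 with Fasn (rho = 0.598) and 0.297 with Acacb (rho = 0.289, adjusted permutation p 0.048 and 0.0551), the lowest of all pairs. Srebf1 had r = 0.707 with Fasn (rho = 0.756), and Mlxipl r = 0.594 (rho = 0.583). Mlxipl and Acacb had r = 0.712 with each other (rho = 0.724), and 0.658 without the 2 farthest libraries. Of this pair only Mlxipl was called in CAC at 8 weeks, and only against Con.

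Marker lists of cell types moved with the genes within groups. Acacb had r = 0.798 with the thermogenic list (rho = 0.727), 0.758 without the 2 farthest libraries, while Fasn had 0.357 (rho = 0.309). Scd1 and Srebf1 were the genes with the highest r with the adipocyte list, 0.529 (rho = 0.442) and 0.463 (rho = 0.367), against 0.06 for Fasn (rho = -0.02). All 10 genes were negative with the macrophage list, from -0.726 for Elovl6 (rho = -0.741) to -0.406 for Srebf1 (rho = -0.464). They were also negative with the fibroblast and matrix list, from -0.678 for Acacb (rho = -0.656) to -0.303 for Srebf1 (rho = -0.370). The adjusted permutation p of these r was at most 0.0194 for the macrophage and matrix lists. Negative r were not particular to these lists. With the mammary epithelium list they ran from -0.568 for Scd1 (rho = -0.516) to -0.294 for Elovl6 (rho = -0.278). With the mesothelium list they ran from -0.599 for Acacb (rho = -0.558) to -0.269 for Srebf1 (rho = -0.320). The liver list and the melanocyte and melanoma list had negative r with all 10 too. The part of cell content in the differences between arms was not tested.

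**Figure D4:**
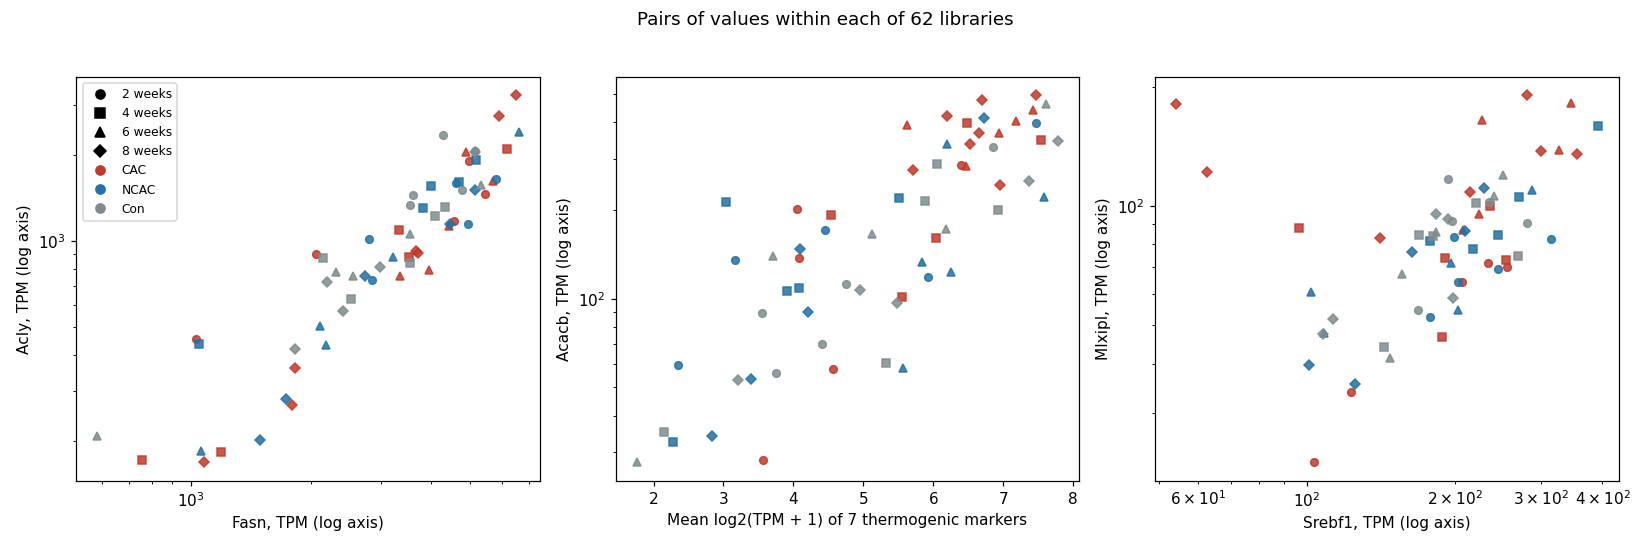
Each point is 1 of 62 libraries, coloured by arm and shaped by week: Acly against Fasn (TPM, log axes), Acacb (TPM, log axis) against the mean log2(TPM + 1) of the 7 thermogenic markers, and Mlxipl against Srebf1 (TPM, log axes). In the right panel CAC 8 weeks replicates 1 and 6 lie far left at 62.6 and 54.3 TPM of Srebf1 with 122 and 181 TPM of Mlxipl.

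Genes outside the 10 whose level most resembled their mean over the 62 libraries were found by Pearson r of log2(TPM + 1). These were Slc2a5 (0.951), the fructose transporter GLUT5, then Slc25a1 (0.939), the mitochondrial citrate carrier, Pdhb (0.927), a subunit of pyruvate dehydrogenase, Gbe1 (0.903), the glycogen branching enzyme, and Taldo1 (0.898), transaldolase of the pentose phosphate route. For Fasn alone they were Slc25a1 (0.946), Slc2a5 (0.926), Pdhb (0.926), Taldo1 (0.911) and Tkt (0.909), transketolase. Slc2a5 averaged 20.6 TPM and Slc25a1 927 TPM.

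Neighbouring steps of the pathway were read from lists chosen by gene function. For acetyl-CoA and citrate supply (Slc25a1, Acss2, Cs, Pcx, Mdh1 and Aacs) none of 6 was called in any of the 19 comparisons. In CAC against Con at 8 weeks Aacs, acetoacetyl-CoA synthetase, had a log2 difference of 0.87 (adjusted p = 0.126) and Acss2, the acetate-activating enzyme, of -0.60 (adjusted p = 0.579). For partners and regulators of the transcription factors (Srebf2, Scap, Insig1, Insig2, Mbtps1, Mbtps2, Nr1h2, Nr1h3, Mid1ip1, Mlx and Mlxip) none of 11 was called either. Mlx, the binding partner of ChREBP, had a log2 difference of 0.56 from Con (SE 0.15, adjusted p = 0.0613) and Nr1h3, the gene of LXR alpha, of 0.63 (SE 0.18, adjusted p = 0.0784) at 8 weeks.

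For NADPH supply, 3 of 6 genes were called in CAC against Con averaged over the weeks, where 9.17% of all genes were. Pgls, 6-phosphogluconolactonase, rose by 0.42 (SE 0.07), while G6pdx, glucose-6-phosphate dehydrogenase, fell by 0.41 (SE 0.13) and Idh1, cytosolic isocitrate dehydrogenase, fell by 0.35 (SE 0.09). The adjusted p-values were 7.5e-05, 0.0401 and 0.00924. Against NCAC, with 11.1% of all genes called, the same 3 were called in the same directions. Several marker lists were lower in CAC against Con: fibroblast and matrix (5 of 6 called lower, median -1.21), mesothelium (2 of 4, -0.77) and adipocyte (2 of 6, -0.17). Against NCAC 3 of 6, 3 of 4 and 3 of 6 of these lists were called lower, and 5 of 6 urothelium markers higher. The part of these cells was not tested.

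Among the other desaturases and the elongation cycle, 2 of 11 tested genes were called in CAC against Con at 8 weeks, both higher, where 3.07% of all genes were called and 1.08% called higher. Scd3, a desaturase isoform known from skin, ranged from 1.97 to 158 TPM in CAC with a median of 11.7, and from 0.368 to 1.37 in Con. Every CAC library lay above every Con library, as for 0.906% of all genes (log2 difference 3.53, SE 0.81, adjusted p = 0.0361). Scd3 is a close paralog of Scd1, and how shared reads were divided is not known. Hacd2, a dehydratase of the elongation cycle, read a median of 161 TPM in CAC and 86.0 in Con (1.00, SE 0.20, adjusted p = 0.0241).

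In CAC against NCAC at 6 weeks 4 of the 11 were called, all higher, where 5.78% of all genes were called, 4.94% called higher and 67.2% had a positive sign. The urothelium list moved with them (4 of 6 called higher, median 3.98), as did the fibroblast and matrix list (1 of 6 called lower, median -1.63), and their part was not tested. Scd3 had a log2 difference of 2.48 (SE 0.49, adjusted p = 0.0216) and Hacd2 of 1.01 (SE 0.15, adjusted p = 0.00414). The remaining pair, Fads2 (0.79) and Fads1 (0.66), are the desaturases of polyunsaturated fatty acids and are named after their values were seen. In the averaged comparisons Fads3, another member of that family, fell by 1.09 against Con (SE 0.24, adjusted p = 0.00277) and by 1.21 against NCAC (SE 0.25, adjusted p = 0.0015). Scd3 and Hacd2 rose in both, Scd3 by 1.76 and 1.67 and Hacd2 by 0.46 and 0.39. Elovl3 belongs both to this list and to the thermogenic list.

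Of genes of glucose entry and ChREBP targets (Slc2a4, Slc2a1, Hk2, Txnip, Khk and Gpd1 tested), Khk was the only one called, in comparisons with 3.07% and 5.78% of all genes called. Khk, the ketohexokinase that phosphorylates fructose, rose in CAC against Con at 8 weeks by 0.59 (SE 0.15, adjusted p = 0.0474) and against NCAC at 6 weeks by 0.62 (SE 0.12, adjusted p = 0.0162). Its levels were 26.9 ± 4.22 TPM (SD, n = 7) in CAC, 22.8 ± 5.21 (n = 5) in NCAC and 17.6 ± 3.16 (n = 5) in Con at 8 weeks. All 6 genes of the list had positive differences in both comparisons. Of all genes 38.9% had a positive sign against Con at 8 weeks and 67.2% against NCAC at 6 weeks.

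For malonyl-CoA use and AMPK, 1 of 10 genes was called in CAC against NCAC at 8 weeks, where 0.528% of all genes were. This was Cpt1b, the muscle and brown fat isoform of carnitine palmitoyltransferase that malonyl-CoA inhibits. It ranged from 34.8 to 104 TPM in CAC with a median of 64.9, and from 2.80 to 50.7 in NCAC with a median of 4.49. The log2 difference was 2.96 (SE 0.55, adjusted p = 0.0409), while Con libraries spanned 5.57 to 140.2 TPM. The thermogenic markers, whose sums are given with Acacb, moved with it, and their part in it was not tested. At 6 weeks Prkag1, a regulatory subunit of AMPK, was the gene called against NCAC (0.41, SE 0.10, adjusted p = 0.0403), with 5.78% of all genes called.

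Other gene models overlap 7 of the 10 genes in GENCODE M21 (GRCm38), and 6 of these have a partner on the opposite strand. Acaca (chromosome 11, 84129672 to 84401651, plus strand) overlaps the protein-coding Gm11437 and Srebf1 (chromosome 11, 60199089 to 60222581, minus strand) overlaps Rai1, a protein-coding gene too, each on the opposite strand. Mlxipl (chromosome 5, 135089890 to 135138382, plus strand) overlaps the antisense Gm43500, and Acacb (chromosome 5, 114146535 to 114250761, plus strand) an opposite-strand pseudogene, Gm13784. Elovl6 and Me1 each overlap an antisense gene (Gm35986 and A330041J22Rik) and an unclassified model on their own strand (Gm43072 and Gm38230). Acly overlaps the miRNA gene Mir7116 on its own strand, while Acaca and Srebf1 have further same-strand partners, Gm37391 for the first and Mir6921 and Mir6922 for the second. Whether the authors counted reads by strand is not given in the sources used here, so reads of overlapping partners may be included in these levels.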

How the data were processed

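RNA was measured in white adipose tissue by stranded mRNA sequencing after Trizol extraction, per the labels' protocols. The authors deposited 1 table of TPM per gene and library, in which each of the 62 libraries sums to 1000000. The genome build mm10 is named in the submitters' processing notes. For aligner, counter, annotation and read depth the entry is: not given in the sources used here. No counting error can therefore be stated.

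Groups were taken from the sample descriptions. The values were transformed to log2(TPM + 1), and 14577 of 47643 symbols were kept, those averaging 0.5 TPM or more. Comparisons were fitted with limma 3.58.1 in R 4.3.3 (trend and robust options), each on its own groups, over all genes kept. They were 12 pairs of arms within a week, 3 pairs averaged over the 4 weeks, 3 changes of an effect between weeks, and Con at 8 against 2 weeks. P-values are two-sided with Benjamini-Hochberg adjustment over all genes tested, and a gene is called at an adjusted p under 0.05. The verbs rose and fell are used only for called genes, and fold differences are on the log2(TPM + 1) scale, which understates changes of scarce transcripts. Within-library ratios were compared by exact permutation tests (scipy 1.17.1), and correlations used 100000 permutations within groups. Recovery of known changes was tested on simulated data.

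Named genes were the 10 members and, from each pathway list, the called genes of a comparison, up to 2 that rose most and 2 that fell most. Genes described outside this rule, among them the uncalled Aacs, Acss2, Mlx and Nr1h3, were picked with their values in view. The 5 genes of highest likeness leave out predicted genes and mitochondrially encoded ones. The members and lists were chosen with earlier results of these data known. The alternatives were another pseudocount, 2 filters, 2 scalings, a common fit, library weights, covariates, a replicate block and leaving out libraries.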

Additional observations from a re-analysis of the deposited data

Results flagged for a closer look

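In 6 of 120 combinations of gene and group, 1 library lay far from the others of its group by Dixon's test, and chance flags about 1 in 20. They fell in 4 libraries, all Con. Con 8 weeks replicate 3 was the highest of its group for Acly (2051 TPM, next 812), Elovl6 (992, next 372) and Me1 (2520, next 1159). This library was also rich in urothelium markers, and the part of those cells was not tested. Without it 2 of the 10 genes, in place of 1, were called in CAC against Con at 8 weeks.

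Scd1 was low in Con 8 weeks replicate 2 (6385 TPM, next 12128), a matrix-rich library, and high in Con 4 weeks replicate 5 (16646, next 10707). Acacb was high in Con 2 weeks replicate 5 (329 TPM, next 112).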

How the results depend on the processing

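Of 5460 differences of single genes under an alternative, 5386 kept their side of the threshold, 36 lost a call and 38 gained one. No called difference reversed, and 580 uncalled ones changed sign. In CAC against Con at 8 weeks the count of called genes among the 10 went from 1 to 0 with no filter, without the mitochondrially encoded genes, with median-ratio rescaling, the urothelium or thermogenic covariate and the replicate block, and without the urothelium-rich or matrix-rich libraries; it was 0 to 2 when 1 library was left out. In CAC against NCAC at 6 weeks it went from 1 to 2 with the filter at 5 TPM, to 3 with library weights, and to 0 with median-ratio rescaling, all 62 libraries in 1 fit, the urothelium covariate and without urothelium-rich libraries. Leaving out 1 library gave 0 to 5 there, with 5 without NCAC replicate 5 and 0 without CAC replicate 4 or NCAC replicates 2 or 4. In CAC against NCAC at 8 weeks 0 became 1 in the common fit, 2 with weights and 2 without NCAC replicate 3 (otherwise 0). For CAC against NCAC averaged over the weeks 1 became 0 without the mitochondrially encoded genes, with median-ratio rescaling, the replicate block or the thermogenic covariate and without urothelium-rich libraries, and 2 with weights; leaving out 1 library gave 0 to 1. For CAC against Con averaged, 0 became 1 with the 5 TPM filter, with weights and without matrix-rich libraries, and leaving out 1 library gave 0 to 1. The change of the CAC effect from 2 to 8 weeks went from 0 to 1 (Mlxipl) in the common fit and with weights. With library weights, CAC against Con at 6 weeks went from 0 to 5, NCAC against Con at 6 weeks from 0 to 1 and Con at 8 against 2 weeks from 0 to 1. Where no alternative value shows the reason, the cause was not tested.

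Counts over all genes moved too. Weights gave 1713 higher and 1045 lower in CAC against Con at 6 weeks (45 and 7 without), and 256 and 822 in NCAC against Con at 6 weeks (0 and 0 without). The replicate block gave 23 and 7 in CAC against Con at 8 weeks (158 and 290 without), and 658 and 477 for CAC against NCAC averaged (865 and 750 without). The main fits did not pair samples by replicate number. In none of 12 comparisons did all 5 same-numbered pairs correlate over 0.1, from 0 of 5 to 4 of 5. The highest r of a pair was 0.573, in CAC against Con at 2 weeks. Whether same-numbered libraries were handled together was not tested. Rescaling shifted the median of all genes by over 0.1 in 4 comparisons, among them CAC against NCAC at 6 weeks by -0.15 and Con at 8 against 2 weeks by -0.15. Read depth is unknown, so what it limits could not be computed.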
